A study of Rattus norvegicus with 20 samples.

Results

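The core circadian clock genes of the liver were examined across the doses of triphenyl phosphate, a flame retardant and plasticiser. The members were the positive arm (Bmal1, Npas2 and Clock), the negative arm (Per1, Per2, Per3, Cry1 and Cry2) and the REV-ERB receptors (Nr1d1 and Nr1d2). They were chosen by symbol, through the array's annotation, with earlier results of these data known. All 10 of 10 members were measured, on 18 of the 31042 probe sets analysed and as 10 of 14217 genes. A probe set is the group of short probes on the array that reads 1 transcript. No filter on low signal was applied, so none was lost to one.

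In mammals the clock is a feedback loop of transcription. BMAL1 pairs with CLOCK or NPAS2, the pair binds E-boxes in DNA and switches on the Per, Cry and Nr1d genes, and the PER and CRY proteins then block the pair that made them. REV-ERB alpha and beta, the products of Nr1d1 and Nr1d2, repress Bmal1 and Npas2 at ROR elements, so in liver the levels of these genes cycle over the day and the arms peak at opposite hours.

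The rats were male Harlan Sprague Dawley, and they received by gavage corn oil alone (vehicle, 0 mg/kg, 5 arrays) or triphenyl phosphate in corn oil at 55, 110, 220, 440 or 881 mg/kg (3 arrays each, 15 dosed arrays). Every group was dosed daily on 4 days, liver of the left lobe was taken on day 5, and 20 Affymetrix arrays were made. The sources used here do not give the age of the rats or the hour of day at which livers were taken. Whether each array came from its own rat is not labelled, so the p-values rest on a spread between arrays that may be technical. The labels give 440 mg/kg and the design text 441 mg/kg for the same group.

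Precision was limited by how many arrays each group had. The labelled tissue was borne out by its markers, with 7 of 8 listed hepatocyte genes measured and a mean log2 level between 14.31 and 14.41 on every array. The array of 881 mg/kg replicate 2 stood apart: its median correlation with the other arrays was 0.980, and the 3' end of the beta-actin control read 3.47 above its 5' end on the log2 scale, against 1.67 to 2.72 on the others. The same difference for the Gapdh control was 5.24 on this array, against 0.81 to 1.64 on the others. Calls named below that end without 881 mg/kg replicate 2 are given without it as well. Without it 4 members rose and 2 fell at that dose, as with it, while the share of all genes was 7.62% for rises and 3.93% for falls. In liver RNA as a whole, fewer cells of a type and less RNA per cell cannot be told apart.

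Promoter sequence is shown for Bmal1, which fell at every dose and is a known target of the REV-ERB receptors, and for Per2 and Nr1d1, known targets of the BMAL1 pair. Each line holds the 250 bases before a transcription start annotated by RefSeq on the GRCr8 build, 5′ to 3′ on the gene's strand. Capitals mark the motifs searched on both strands: the E-box (CACGTG), the E′-box (CACGTT), the D-box (TTATGTAA) and the core of the ROR element (TAGGTNA).
Bmal1 (chr1:176766078-176766327, plus strand): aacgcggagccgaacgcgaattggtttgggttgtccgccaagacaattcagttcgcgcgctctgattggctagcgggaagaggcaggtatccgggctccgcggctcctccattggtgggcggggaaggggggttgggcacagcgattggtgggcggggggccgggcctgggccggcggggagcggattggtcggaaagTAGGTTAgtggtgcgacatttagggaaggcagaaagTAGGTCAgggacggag
Per2 (chr9:99496994-99497243, minus strand): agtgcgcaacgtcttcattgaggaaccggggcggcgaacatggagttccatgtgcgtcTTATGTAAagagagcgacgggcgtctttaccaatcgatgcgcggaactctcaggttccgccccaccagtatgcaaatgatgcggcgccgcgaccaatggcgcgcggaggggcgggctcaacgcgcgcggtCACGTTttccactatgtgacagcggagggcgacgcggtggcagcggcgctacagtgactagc
Nr1d1 (chr10:84229455-84229704, minus strand): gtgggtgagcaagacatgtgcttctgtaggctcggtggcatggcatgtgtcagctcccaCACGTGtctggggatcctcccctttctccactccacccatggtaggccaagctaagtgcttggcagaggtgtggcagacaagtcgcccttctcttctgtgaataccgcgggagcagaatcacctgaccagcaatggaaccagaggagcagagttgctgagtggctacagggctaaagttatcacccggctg

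The Bmal1 window held 2 matches to the ROR element core, TAGGTTA from 52 to 46 bases and TAGGTCA from 16 to 10 bases before the start. The Per2 window held a D-box 192 to 185 bases and an E′-box 62 to 57 bases before the start. The Bmal1 and Per2 windows lie partly inside the annotated gene, with both Bmal1 matches and the Per2 E′-box in that part. The Nr1d1 window belongs to a start inside the gene, and its E-box lay 191 to 186 bases before it. A window at the outer start of Nr1d1 and that of Cry2 each held 1 E′-box on the other strand. The table held windows for 9 members, all but Cry1, and in those of Npas2, Clock, Per1, Per3 and Nr1d2 these letters were not found. The windows of Npas2, Per1 and Per3 lie wholly inside the gene, so the bases before the outer ends of these genes were not searched. The second Clock window lies inside its gene too. Of all 33469 RefSeq windows of this length, 5.59% held the E-box, 4.07% the E′-box, 0.828% the D-box and 7.55% the ROR element core. The matches are a description of these letters and were not tested for binding.

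Bmal1 and Cry1 fell at the lowest dose, 55 mg/kg, while Per3, Cry2, Nr1d1 and Nr1d2 rose. Thus 6 of 10 members were called in limma's test against vehicle (adjusted p under 0.05), where 2.81% of all genes were (1.93% rose and 0.879% fell). The 55 mg/kg and vehicle arrays did not overlap for 8 members, against 13.6% of all genes. Between 55 and 881 mg/kg only Npas2 was called, with a lower level at 881 mg/kg, where 7.06% of all genes were called; the arrays of these doses did not overlap for 5 members (23.3% of all genes). All comparisons with vehicle share the same 5 vehicle arrays. Levels below are log2 values of 1 probe set, and a change is the difference in log2 level from vehicle unless another group is named. "Rose" and "fell" are used only for called changes.

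**Figure D1:**
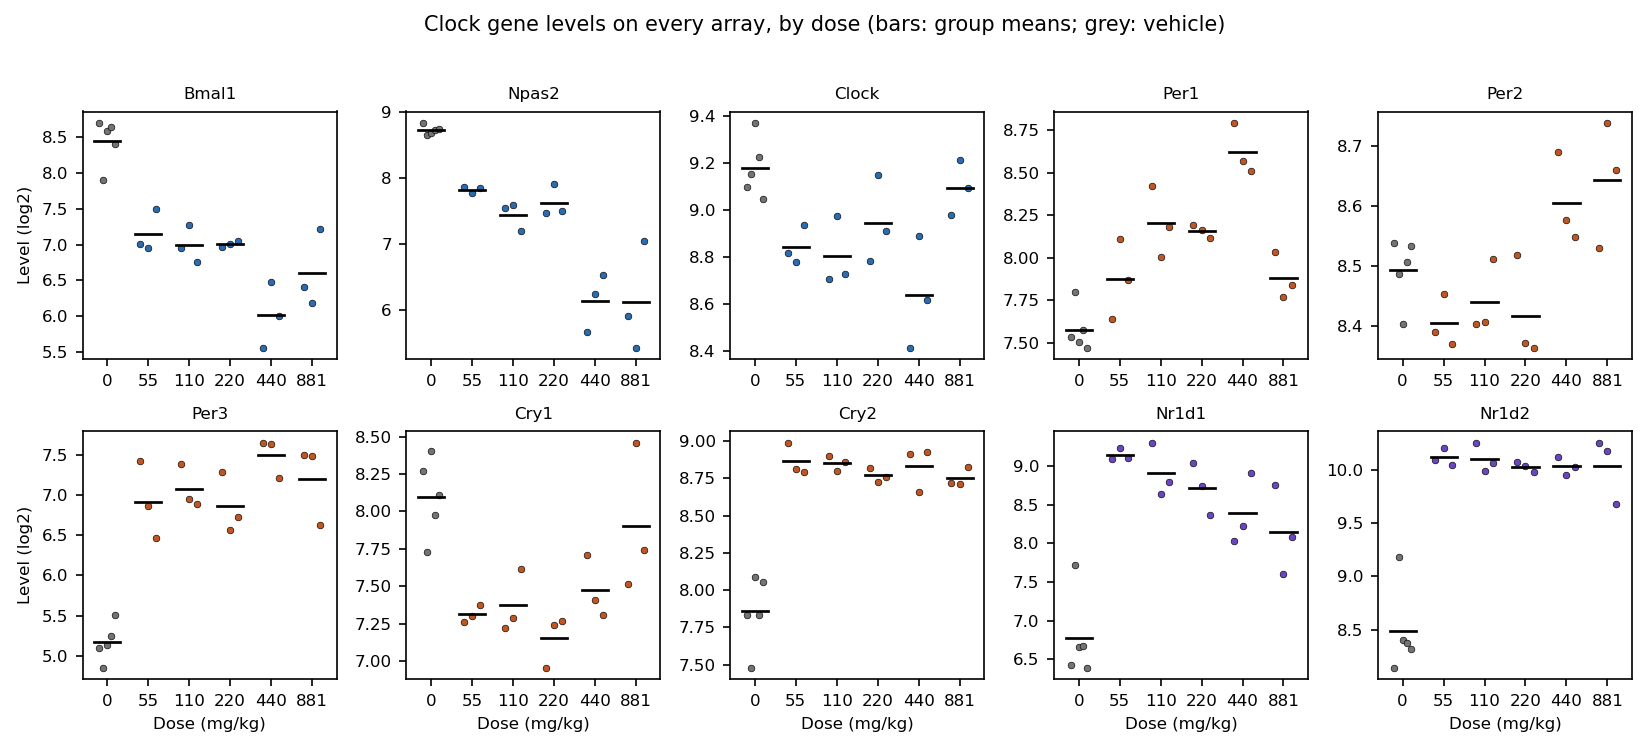
Level of each clock gene (log2, vertical axis, scaled per gene) on every array against dose in mg/kg (0 is vehicle, grey). Points are arrays and bars are group means of 3 dosed or 5 vehicle arrays; Cry2 and Nr1d2 stood at like levels in all dosed groups, while Npas2 had its lowest group means at 440 and 881 mg/kg.

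Bmal1 (NCBI gene 29657, chr1:176766222-176864741 on GRCr8), whose product is the shared partner of CLOCK and NPAS2, fell at every dose. Its levels were 7.01, 6.95 and 7.49 at 55 mg/kg, against 8.70, 7.90, 8.58, 8.64 and 8.40 in vehicle livers. At 110 mg/kg they were 6.95, 7.28 and 6.75, and at 220 mg/kg 6.97, 7.01 and 7.05. At 440 mg/kg they were 5.56, 6.47 and 6.01, and at 881 mg/kg 6.41, 6.18 and 7.22. All dosed arrays lay below all vehicle arrays, and the lowest level was that of 440 mg/kg replicate 1. The change was -1.29 ± 0.23 at 55 mg/kg (SE, adjusted p = 0.00469), a 2.45-fold lower level. It was -2.43 ± 0.23 at 440 mg/kg (adjusted p = 2.15e-06), a 5.39-fold lower level, the widest of the 5 doses.

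Npas2 (NCBI gene 316351, chr9:48959225-49138036), which can stand in for CLOCK as partner of BMAL1, had the steadiest vehicle levels of the positive arm. Its change was wider at 440 and 881 mg/kg than at the lower doses. Its levels were 7.86, 7.77 and 7.84 at 55 mg/kg, against 8.83, 8.65, 8.68, 8.72 and 8.74 in vehicle livers. They were 7.54, 7.59 and 7.20 at 110 mg/kg and 7.47, 7.91 and 7.50 at 220 mg/kg. They were 5.67, 6.24 and 6.53 at 440 mg/kg and 5.91, 5.43 and 7.04 at 881 mg/kg. No dosed array reached a vehicle level, and all arrays of the 2 highest doses lay below all arrays of the lower doses. At 55 mg/kg the change of -0.90 ± 0.24 missed the threshold (adjusted p = 0.0517), though Npas2 passed in 9 alternative settings, among them without 881 mg/kg replicate 2 (adjusted p = 0.0155), 881 mg/kg replicate 3 (adjusted p = 0.00523) or 440 mg/kg replicate 1 (adjusted p = 0.0428). At 220 mg/kg it fell by 1.10 (adjusted p = 0.0167), which did not pass when 220 mg/kg replicate 1 (adjusted p = 0.0704) or 3 (adjusted p = 0.0754) was left out. At 440 mg/kg it was -2.58 ± 0.24 (adjusted p = 2.15e-06), a 5.97-fold lower level. Without 881 mg/kg replicate 2, the array that stood apart, the change of Npas2 at 881 mg/kg was -2.25.

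Clock (NCBI gene 60447, chr14:32262747-32346872), the third gene of the positive arm, changed less. Its brightest probe set read 8.82, 8.78 and 8.93 at 55 mg/kg, against 9.10, 9.15, 9.37, 9.22 and 9.05 in vehicle livers, so these groups did not overlap. Its change was -0.34 ± 0.11 there (adjusted p = 0.116), and of the 5 doses only 440 mg/kg was called (-0.54 ± 0.11, adjusted p = 0.0033). Clock passed in 3 alternative settings at 55 mg/kg (adjusted p 0.0358 to 0.0465) and in 8 at 110 mg/kg (adjusted p 0.0166 to 0.0478), among them without 440 mg/kg replicate 1 or 2. Levels of 8.41, 8.89 and 8.62 at 440 mg/kg were followed by 8.98, 9.21 and 9.09 at 881 mg/kg, of which 2 lay inside the vehicle range. A second Clock probe set read 8.14, 8.12 and 8.04 at 55 mg/kg, against 8.57, 8.32, 8.57, 8.54 and 8.49 in vehicle livers. In a fit of every probe set it fell by 0.40 ± 0.096 at 55 mg/kg (adjusted p = 0.0422) and by 0.41 at 881 mg/kg (adjusted p = 0.00866). Its change at 220 mg/kg was not called (-0.33, adjusted p = 0.101). The other 2 Clock probe sets were dim, at 5.02 to 5.75 and 5.07 to 5.47 over all 20 arrays, and neither was called at any dose.

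The period genes encode repressors that enter the nucleus with the cryptochromes. Per1 (NCBI gene 287422, chr10:54299002-54313804) read 7.64, 8.11 and 7.87 at 55 mg/kg, against 7.53, 7.80, 7.50, 7.57 and 7.47 in vehicle livers, and these groups overlapped. Its levels were 8.42, 8.01 and 8.18 at 110 mg/kg, 8.19, 8.16 and 8.12 at 220 mg/kg, and 8.79, 8.57 and 8.51 at 440 mg/kg, all above vehicle. Those at 881 mg/kg were 8.04, 7.77 and 7.84, again overlapping vehicle. The change was 0.30 ± 0.11 at 55 mg/kg (adjusted p = 0.179, and 0.18 to 0.41 on the log2 scale when an array of that group was left out), 1.05 ± 0.11 at 440 mg/kg (adjusted p = 7.22e-06) and 0.31 ± 0.11 at 881 mg/kg (adjusted p = 0.0619). The change of Per1 at 881 mg/kg passed without vehicle replicate 2 (adjusted p = 0.0343), without 55 mg/kg replicate 1 or 2 (adjusted p = 0.0461 and 0.0473) or without 110 mg/kg replicate 1 (adjusted p = 0.049). With all arrays Per1 was called at the 3 middle doses and at neither end. Between 440 and 881 mg/kg it fell by 0.74 ± 0.12 (adjusted p = 0.0186), where 0.26% of all genes were called; this comparison was added after values were seen.

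Per2 (NCBI gene 63840, chr9:99454828-99497069) gave 2 readings that differed in size. The probe set with the higher mean, which represents the gene in the counts, was nearly flat: 8.39, 8.45 and 8.37 at 55 mg/kg, against 8.54, 8.49, 8.40, 8.51 and 8.53 in vehicle livers. Its levels at 881 mg/kg were 8.53, 8.74 and 8.66, and it was called at no dose. The second probe set, which the annotation ties to a RefSeq mRNA, read 7.59, 7.35 and 7.17 at 55 mg/kg, against 6.84, 5.59, 6.62, 6.38 and 6.21 in vehicle livers. It went on to 8.02, 7.18 and 8.18 at 110 mg/kg, 8.18, 8.05 and 7.95 at 220 mg/kg, 9.76, 9.29 and 8.51 at 440 mg/kg, and 8.59, 9.16 and 7.85 at 881 mg/kg. All dosed arrays of the second probe set lay above all vehicle arrays. In the fit of every probe set its change was 1.04 ± 0.31 at 55 mg/kg (adjusted p = 0.113), and it rose by 2.86 ± 0.31 at 440 mg/kg (adjusted p = 1.08e-05), a 7.24-fold higher level. Its rise at 881 mg/kg was 2.20 ± 0.31 (adjusted p = 0.000129), and that of Per2 without replicate 2 was 1.89 (adjusted p = 0.00121). At 55, 110 and 220 mg/kg the 2 probe sets differed in sign, and which of them reads the Per2 transcript was not tested.

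Per3 (NCBI gene 78962, chr5:166740914-166778243) rose at every dose. Its levels were 7.42, 6.86 and 6.46 at 55 mg/kg, against 5.10, 4.85, 5.13, 5.24 and 5.51 in vehicle livers. They were 7.39, 6.95 and 6.89 at 110 mg/kg and 7.28, 6.57 and 6.73 at 220 mg/kg. They were 7.65, 7.63 and 7.21 at 440 mg/kg and 7.50, 7.49 and 6.62 at 881 mg/kg. Every dosed array stood above every vehicle array. The rise was 1.75 ± 0.23 at 55 mg/kg (adjusted p = 0.000295) and 2.33 ± 0.23 at 440 mg/kg (adjusted p = 2.81e-06). The other Per3 probe set stayed between 4.71 and 5.15 on all 20 arrays and was not called. Whether the vehicle levels of Per3 stood above the arrays' background was not tested, so no fold is given.

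**Figure D2:**
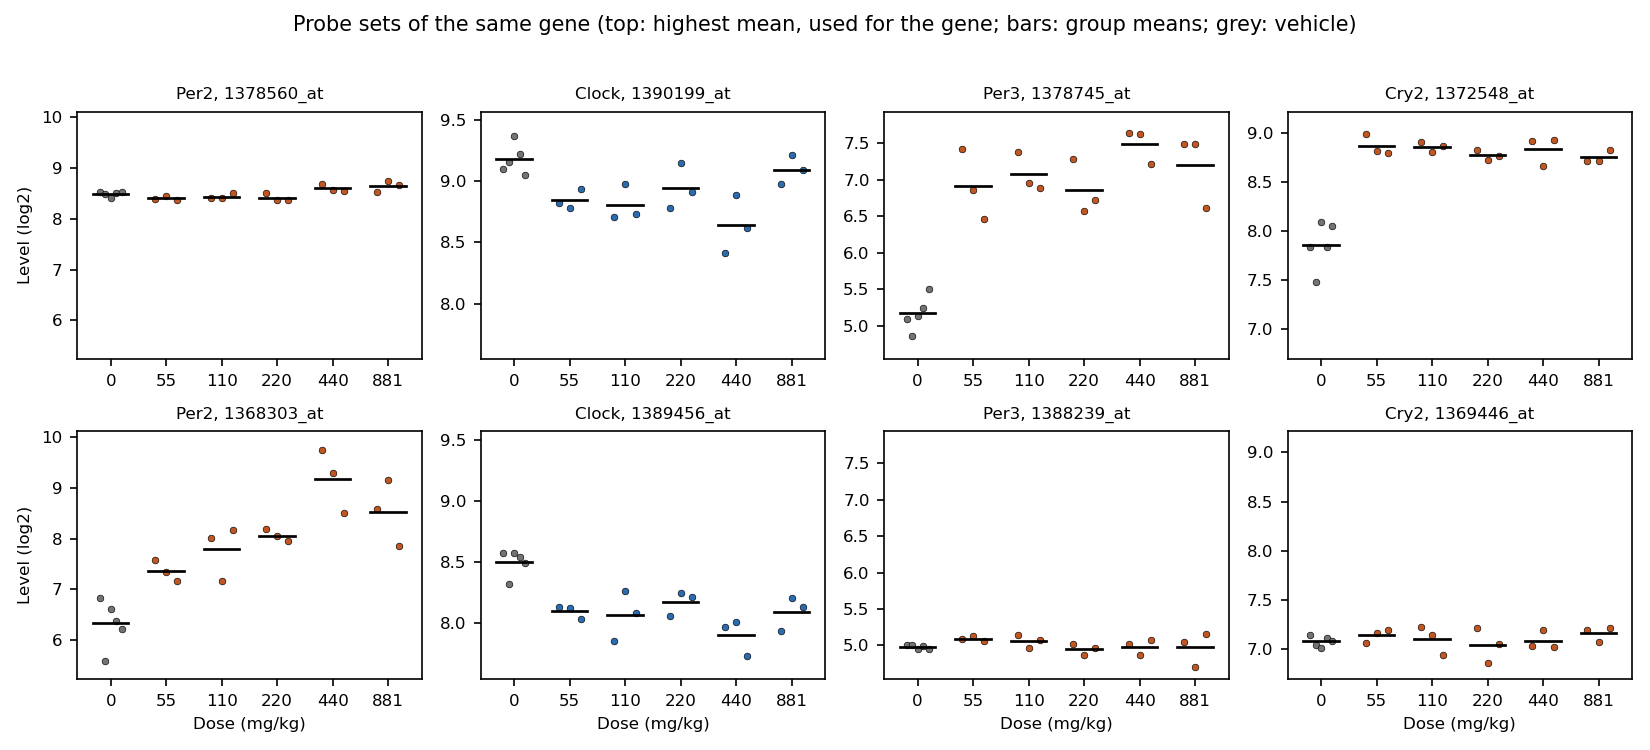
Level (log2, vertical axis) of the brightest and the next probe set of Per2, Clock, Per3 and Cry2 on every array against dose in mg/kg (0 is vehicle, grey), each gene's pair on 1 scale; bars are group means. The lower Per2 probe set reaches 9.76 while the upper one stays at 8.74 or below, and the lower probe sets of Per3 and Cry2 are flat.

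The cryptochromes, the strongest repressors of the BMAL1 pair, moved in opposite directions. Cry1 (NCBI gene 299691, chr7:20417526-20481791) read 7.27, 7.30 and 7.38 at 55 mg/kg, against 8.27, 7.73, 8.40, 7.98 and 8.11 in vehicle livers, and fell by 0.78 ± 0.18 (adjusted p = 0.022). It fell at 110, 220 and 440 mg/kg too, most at 220 mg/kg (-0.94, adjusted p = 0.00545), where it read 6.96, 7.24 and 7.27. Its 881 mg/kg levels of 7.52, 8.46 and 7.74 overlapped vehicle, and the change of -0.19 ± 0.18 was not called (adjusted p = 0.481). The level of 8.46 belongs to replicate 2, and without it the change of Cry1 was -0.47 (adjusted p = 0.0609). Without any 1 of the 55 mg/kg arrays, the fall of Cry1 at that dose was no longer called (adjusted p 0.0665 to 0.0871). The falls of Cry1 at 110 and 440 mg/kg were lost without vehicle replicate 1 (adjusted p = 0.055 and 0.0604) or 3 (adjusted p = 0.065 and 0.064). The fall at 110 mg/kg was also lost without that group's replicate 1 or 2 (adjusted p = 0.125 and 0.106), and the fall at 440 mg/kg without that group's replicate 2 or 3 (adjusted p = 0.107 and 0.13). With the replicate number as a block, Cry1 was not called at 55, 110 or 440 mg/kg (adjusted p = 0.0604, 0.0732 and 0.0622).

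Cry2 (NCBI gene 170917, chr3:98830479-98860437) rose at every dose. It read 8.99, 8.81 and 8.79 at 55 mg/kg, against 7.83, 7.48, 8.09, 7.84 and 8.05 in vehicle livers. It read 8.90, 8.80 and 8.86 at 110 mg/kg, 8.82, 8.72 and 8.76 at 220 mg/kg, 8.91, 8.66 and 8.92 at 440 mg/kg, and 8.72, 8.71 and 8.83 at 881 mg/kg. All 15 dosed arrays lay within 8.66 to 8.99, above all vehicle arrays. The rise was 1.01 ± 0.11 at 55 mg/kg (adjusted p = 3.27e-05), a 2.01-fold higher level, and 0.89 ± 0.11 at 881 mg/kg (adjusted p = 2.15e-05). The second Cry2 probe set read 6.86 to 7.23 over all 20 arrays and was not called.

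The REV-ERB receptors close the second loop by repressing Bmal1. Nr1d1 (NCBI gene 252917, chr10:84224599-84231812) read 9.10, 9.23 and 9.11 at 55 mg/kg, against 6.42, 7.72, 6.66, 6.67 and 6.39 in vehicle livers. It read 9.31, 8.64 and 8.79 at 110 mg/kg and 9.05, 8.75 and 8.37 at 220 mg/kg. It read 8.03, 8.23 and 8.92 at 440 mg/kg and 8.76, 7.61 and 8.08 at 881 mg/kg. The groups did not overlap up to 440 mg/kg, while at 881 mg/kg replicate 2 lay below vehicle replicate 2. Its rise of 2.38 ± 0.29 at 55 mg/kg (adjusted p = 0.000176), a 5.19-fold higher level, was the largest of any member at that dose. At 881 mg/kg the rise was 1.38 ± 0.29 (adjusted p = 0.00257), and Nr1d1 rose by 1.65 there without replicate 2.

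Nr1d2 (NCBI gene 259241, chr15:9955034-9981329) read 10.09, 10.21 and 10.05 at 55 mg/kg, against 8.14, 9.18, 8.40, 8.38 and 8.32 in vehicle livers. Its dosed levels lay between 9.68 and 10.26 on all 15 arrays, all above vehicle. The rise was 1.64 ± 0.17 at 55 mg/kg (adjusted p = 2e-05), a 3.11-fold higher level, and 1.55 ± 0.17 at 881 mg/kg (adjusted p = 7.66e-06). A second Nr1d2 probe set rose as well, by 1.48 ± 0.18 at 55 mg/kg (adjusted p = 0.000281 in the fit of every probe set). The last one read 3.75 to 4.25 over all 20 arrays and was not called.

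Over the 5 doses the number of members called was highest at 440 mg/kg. At 110 mg/kg 5 members rose, where 2.36% of all genes did, and 3 fell, where 1.24% did (3.61% called in all). At 220 mg/kg the counts were the same, against 2.25% and 1.18% (3.43% in all). At 440 mg/kg 5 rose and 4 fell, all members but Per2, where 6.76% of all genes rose and 4.28% fell (11% in all). The 881 mg/kg group had 4 that rose (Per3, Cry2, Nr1d1 and Nr1d2) and 2 that fell (Bmal1 and Npas2), where 12.7% of all genes rose and 6.73% fell (19.5% in all). The median size of the members' changes was 0.95 at 55 mg/kg and 1.14 at 881 mg/kg, against 0.099 and 0.15 over all genes. The dosed and vehicle arrays did not overlap for 9 members at 110 mg/kg (12.9% of all genes), 8 at 220 mg/kg (13%), all 10 at 440 mg/kg (21.2%) and 5 at 881 mg/kg (21.7%). Of the 18 clock probe sets, fitted among all probe sets, 8, 11, 10, 12 and 9 were called from 55 to 881 mg/kg, where 1.34%, 1.91%, 1.7%, 6.08% and 12.5% of all probe sets were.

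The step up to 55 mg/kg was then set against growth over dose. The change from 55 to 881 mg/kg was called for Npas2 alone, which fell by 1.70 ± 0.27 (adjusted p = 0.000958), a 3.24-fold lower level, with no overlap of the groups. Without 881 mg/kg replicate 2, Npas2 fell by 1.35 (adjusted p = 0.00419), and in a fit of the 55 and 881 mg/kg arrays alone it missed the threshold (adjusted p = 0.0747). For Cry2 this later change was -0.11, with a 95% interval from -0.37 to 0.14, and for Nr1d2 it was -0.08, with an interval from -0.48 to 0.31. The change of Nr1d1 from 55 to 881 mg/kg, -0.996 ± 0.32, with no overlap, missed the threshold (adjusted p = 0.0677). It passed without vehicle replicate 2 (adjusted p = 0.0271) or without 881 mg/kg replicate 1 (adjusted p = 0.0218). Bmal1 differed by -0.55 (95% interval -1.08 to -0.01, adjusted p = 0.216), and the value for Bmal1 was -0.85 without 881 mg/kg replicate 3 (adjusted p = 0.0442) and -0.34 without replicate 2 (adjusted p = 0.581). Without 881 mg/kg replicate 1, Cry1 and Per2 were called higher at 881 than at 55 mg/kg, by 0.79 (adjusted p = 0.0225) and 0.29 (adjusted p = 0.0332), against 0.59 and 0.24 with all arrays (adjusted p = 0.0757 and 0.0626).

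The signed step minus the signed later change was called for 4 members, where 1.72% of all genes were called. It was 3.37 ± 0.54 for Nr1d1 (adjusted p = 0.00403), 1.72 for Nr1d2 (adjusted p = 0.00808) and 1.12 for Cry2 (adjusted p = 0.00718), whose rise up to 55 mg/kg exceeded what followed. It was -1.37 for Cry1 (adjusted p = 0.0384), which fell up to 55 mg/kg and read higher at 881 mg/kg. Since the 55 mg/kg arrays enter both parts, an error in them moves the step and the later change in opposite directions. The calls of Nr1d2 and Cry2 were each lost without 1 array of that group (adjusted p = 0.0648 for Nr1d2 without replicate 2 and 0.0686 for Cry2 without replicate 1). The call of Cry1 was lost in 10 alternative settings (adjusted p 0.0501 to 0.173). For Npas2 the difference was 0.79 (95% interval -0.16 to 1.75), for Bmal1 -0.75 (-1.65 to 0.15) and for Per3 1.46 (0.56 to 2.35, adjusted p = 0.0945).

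**Figure D3:**
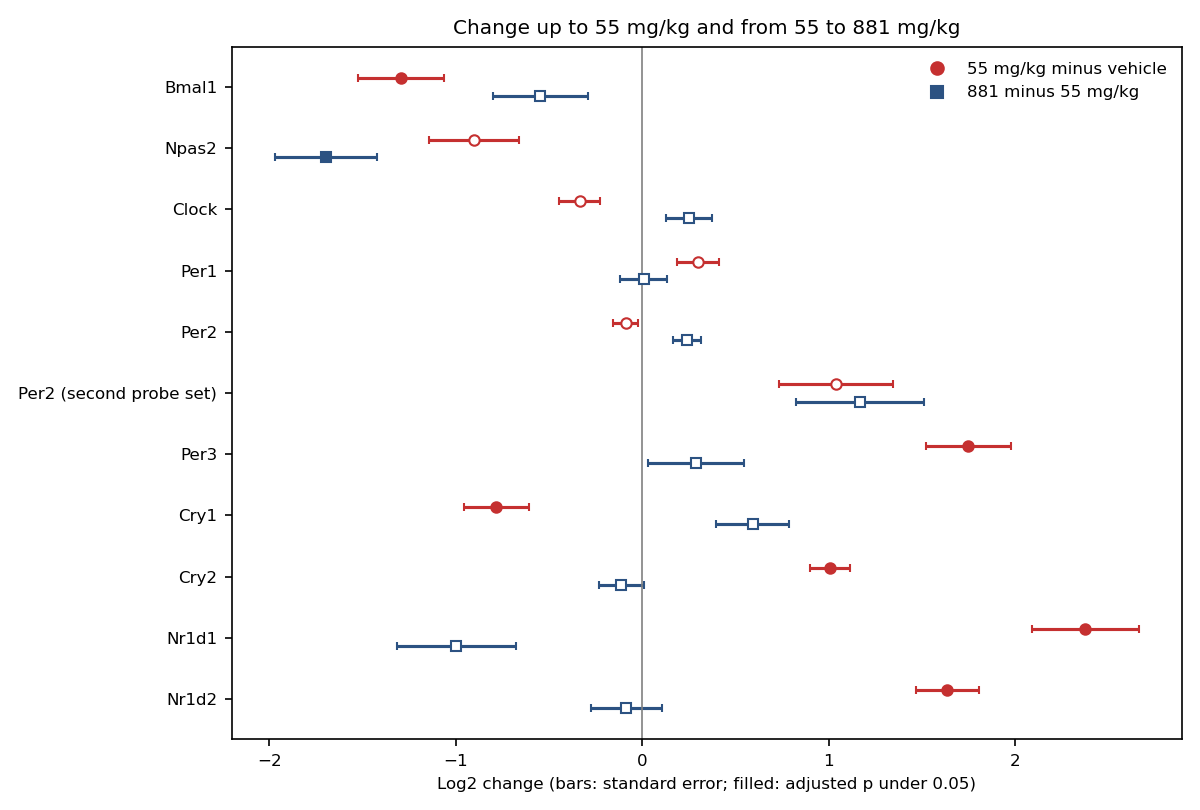
Log2 change of each clock gene (horizontal axis) from vehicle to 55 mg/kg (red circles) and from 55 to 881 mg/kg (blue squares), with standard errors; filled symbols have an adjusted p under 0.05. Nr1d1 lies at 2.38 for the step and -0.996 for the later change, whereas Npas2 lies at -0.90 and -1.70.

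A model with a level of its own for vehicle and a straight line per doubling over the 15 dosed arrays gave a like division. Its fitted step at 55 mg/kg was called for 6 members, where 6.26% of all genes were called: 1.74 for Per3, 1.01 for Cry2, 2.40 for Nr1d1, 1.63 for Nr1d2, -1.28 for Bmal1 and -0.91 for Cry1. The fitted step of Clock, -0.38, missed the threshold (adjusted p = 0.0521) and passed in 14 alternative settings (adjusted p 0.0117 to 0.0494). That of Per1, 0.49, passed without 55 mg/kg replicate 1 (adjusted p = 0.0442). Its slope was called for 3 members, where 10.7% of all genes were called. Npas2 fell by 0.47 ± 0.076 per doubling of dose (adjusted p = 0.000419), and its fitted step of -0.76 was not called (adjusted p = 0.0944), though it passed without 220 or 881 mg/kg replicate 2 (adjusted p = 0.0465 and 0.0471). Nr1d1 fell by 0.25 ± 0.067 per doubling (adjusted p = 0.0182), which was lost without 881 mg/kg replicate 2 (adjusted p = 0.0741) and without the 881 mg/kg group (adjusted p = 0.165). The flat probe set of Per2 rose by 0.06 ± 0.017 per doubling (adjusted p = 0.0179), lost without 881 mg/kg replicate 2 (adjusted p = 0.061). The second Per2 probe set had both a called step (1.11 ± 0.30, adjusted p = 0.0437) and a called slope (0.37 ± 0.088 per doubling, adjusted p = 0.0128) in the fit of every probe set, where 3.49% of all probe sets had a called step and 6.5% a called slope. For Bmal1 the slope was -0.21 ± 0.069 (adjusted p = 0.0569), called without 881 mg/kg replicate 3 (adjusted p = 0.00897).

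The doses were also compared one by one. Between neighbouring doses, compared after values were seen, limma called 0 members from 55 to 110, 110 to 220 or 220 to 440 mg/kg, where 0%, 0% and 0.0211% of all genes were called. At an unadjusted p under 0.05 the counts were 1, 0 and 6 members, against 2.72%, 2.93% and 5.87% of all genes, and no other tool was run. The widest of these differences were at 440 against 220 mg/kg, with -1.48 ± 0.27 for Npas2 (adjusted p = 0.0742) and -0.99 ± 0.26 for Bmal1 (adjusted p = 0.428). At 440 against 220 mg/kg 5 members did not overlap, against 11.4% of all genes. Per1 without the 881 mg/kg group had a called slope of 0.22 (adjusted p = 0.00934), against 0.04 with it (adjusted p = 0.615).

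The spread of the vehicle arrays was wide for several members, and much of it came from replicate 2. The SD over the 5 vehicle arrays was 0.55 for Nr1d1, higher than that of 99.5% of genes, 0.40 for Nr1d2 (98.6%) and 0.32 for Bmal1 (97.1%). Without vehicle replicate 2 the SD of Nr1d1 was 0.15, that of Nr1d2 0.12 and that of Bmal1 0.13, above 70%, 52.2% and 58.2% of genes. Over all 5 vehicle arrays the SD of Npas2 was 0.069, which put it at the 13.9th percentile of genes, and that of Per2 was 0.054. Replicate 2 was the vehicle array at an end of the range for 8 of 10 members, against 4 members for each of replicates 1, 3 and 5 and 0 for replicate 4. For Bmal1, Npas2, Per1, Cry1, Nr1d1 and Nr1d2 replicate 2 deviated toward the dosed levels, by 1.19 for Nr1d1 and by -0.68 for Bmal1 from the mean of the other 4. For Per3 and Cry2 it deviated away from them, by -0.39 and -0.47, and for the second Per2 probe set by -0.92. Against those other 4 arrays the 55 mg/kg change was 2.61 for Nr1d1, 1.81 for Nr1d2 and -1.43 for Bmal1.

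**Figure D4:**
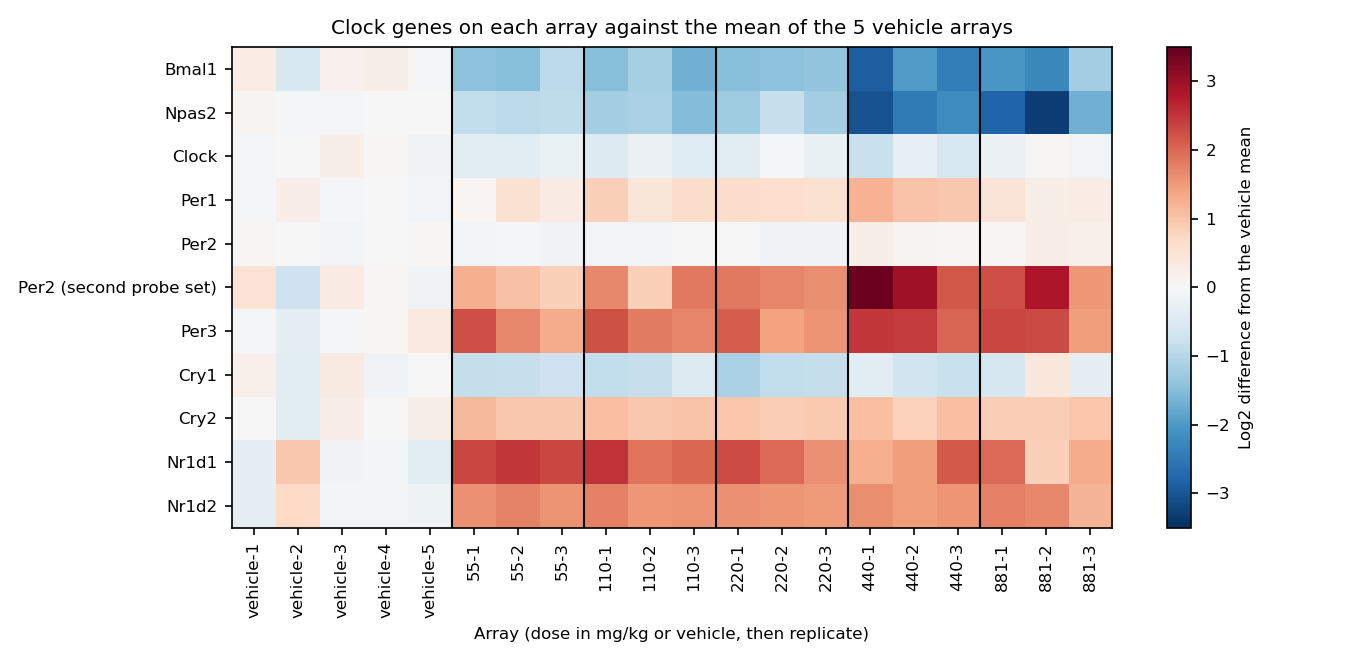
Log2 difference of each clock gene (rows) from the mean of the 5 vehicle arrays on every array (columns, vehicle first, then dose in mg/kg and replicate), red above and blue below. Vehicle replicate 2 stands out for Nr1d1, Nr1d2, Bmal1 and the second Per2 probe set. The array of 881 mg/kg replicate 3 is paler than its group for Bmal1, Npas2, Per3, Nr1d2 and the second Per2 probe set.

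Within the dosed groups the distance from vehicle differed between arrays as well. At 881 mg/kg replicate 3 lay nearest to vehicle for 5 of the 9 called probe sets (Bmal1, Npas2, Per3, the second of Per2 and the first of Nr1d2), and replicate 2 for the other 4. At 110 mg/kg replicate 2 lay nearest for 9 of 11 called probe sets. Why these arrays lay nearest was not tested.

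Other genes of the clock loop, from a list of 26 of which 21 were measured, were read in the same fit. At 55 mg/kg 2 rose and 1 fell, where 1.93% and 0.879% of all genes did, and at 110 and at 220 mg/kg 3 rose and 2 fell (2.36% and 1.24%, then 2.25% and 1.18%). At 440 mg/kg 5 rose and 1 fell (6.76% and 4.28%). At 881 mg/kg 6 rose and 1 fell (12.7% and 6.73%), and without replicate 2 of that dose 5 rose and 0 fell. Their median change was 0.022 at 55 mg/kg and 0.17 at 881 mg/kg, against 0.013 and 0.00072 over all genes. The 3 called at 55 mg/kg were all among the 4 output factors, leucine zipper proteins that bind D-boxes. Dbp, an activator, read 9.69, 10.07 and 9.34 at 55 mg/kg, against 5.80, 6.34, 5.96, 5.97 and 5.73 in vehicle livers, and rose by 3.74 ± 0.27 (adjusted p = 4.28e-07). Dbp rose by more than any core member at each dose, with 4.50 ± 0.27 at 440 mg/kg (adjusted p = 1.19e-08), and its later change from 55 to 881 mg/kg was 0.09 (adjusted p = 0.9). Tef, a second activator, read 9.18, 9.35 and 9.10 at 55 mg/kg, against 8.38, 8.58, 8.65, 8.24 and 8.50 in vehicle livers, and rose by 0.74 ± 0.097 (adjusted p = 0.000297).

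Nfil3, the repressor that competes for D-boxes, read 9.15, 8.59 and 8.76 at 55 mg/kg, against 9.68, 10.04, 9.70, 10.37 and 10.65 in vehicle livers, and fell by 1.25 ± 0.23 (adjusted p = 0.00627). It fell by 2.10 ± 0.23 at 440 mg/kg (adjusted p = 1.01e-05). Its 881 mg/kg levels of 9.11, 9.97 and 9.52 overlapped vehicle, and the change of -0.56 was not called (adjusted p = 0.0988, and for Nfil3 without replicate 2 -0.77, adjusted p = 0.0526). Hlf, the third activator, was not called at any dose, with changes of 0.02 at 55 mg/kg and 0.41 at 440 mg/kg (adjusted p = 0.0744). Of the members, Cry1, Per1 and Clock were called at 440 mg/kg and not at 881 mg/kg, as were Nfil3, Bhlhe40 and Usp2 of the other loop genes; Bhlhe40 and Usp2 are named here after their values were seen.

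**Figure D5:**
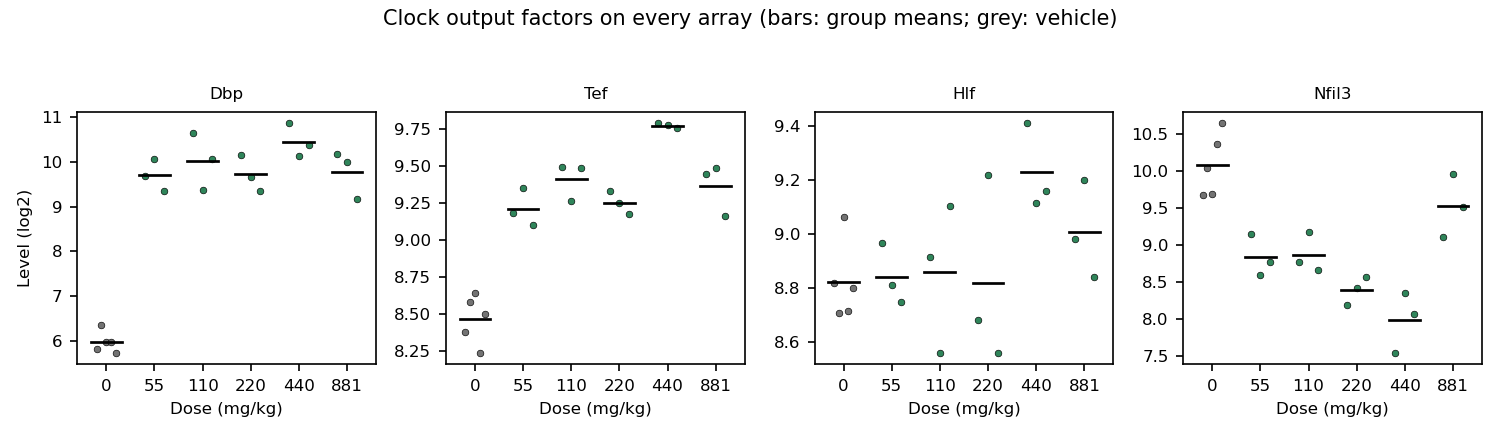
Level (log2, vertical axis, scaled per gene) of the D-box factors Dbp, Tef, Hlf and Nfil3 on every array against dose in mg/kg (0 is vehicle, grey); bars are group means. Dbp and Tef lie above all vehicle arrays at every dose, Nfil3 lies below them up to 440 mg/kg, and Hlf overlaps vehicle at 55, 110, 220 and 881 mg/kg.

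Of the other loop genes called at 881 mg/kg, Noct, the rhythmically expressed nocturnin gene, rose by 1.58 ± 0.35 (adjusted p = 0.00381), and Noct by 1.19 without replicate 2 (adjusted p = 0.039). Timeless, a replication fork protein named after a fly clock gene, rose by 0.86 ± 0.15 (adjusted p = 0.000763). Wdr5, a partner of PER1, fell by 0.33 ± 0.089 (adjusted p = 0.0138), a call of Wdr5 that ended without replicate 2 (-0.25, adjusted p = 0.0966). Noct, like Npas2, Clock and Per1 of the members, was not called at 55 mg/kg and was called at 440 mg/kg. It read 5.57, 6.52 and 5.47 at 55 mg/kg, against 5.85, 6.24, 6.79, 5.86 and 5.87 in vehicle livers. It read 9.45, 8.34 and 8.50 at 440 mg/kg, where it rose by 2.64 ± 0.35 (adjusted p = 6.96e-05).

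Each gene was centred on its own mean, and the clock members themselves were left out of the search. Among the other genes, those whose pattern over the 20 arrays was most like a member's were found by the root mean square difference in log2 level. For Bmal1, which itself varied by 0.87 on this measure, they were Rprm (0.33), Avpr1a (0.34) and Lgalsl (0.36). For Npas2, with 1.02 of its own, they were Nim1k (0.42), Plin2 (0.43) and Rprm (0.48). For Per3 (0.91) they were Cers6 (0.36), Meox2 (0.44) and Hsd17b2 (0.45), and for Nr1d1 (0.95) they were Hsd17b2 (0.41), Mt2A (0.53) and Nedd9 (0.61). The arrays share the dose groups, so this is a description of likeness only. Hsd17b2, a steroid dehydrogenase, was on the lists of both Per3 and Nr1d1.

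Markers of other liver cells moved with dose at the upper doses. At 55 mg/kg limma called 0 of the 42 measured markers of 7 cell types, where 2.81% of all genes were called. Of these markers 4 had an unadjusted p under 0.05, against 15.9% of all genes. No other tool was run. At 440 mg/kg 2 of 8 Kupffer cell, 3 of 6 endothelial and 3 of 7 stellate markers fell, where 4.28% of all genes did. At 881 mg/kg 7 of 8 Kupffer cell, 3 of 6 endothelial, 5 of 7 stellate, 2 of 4 blood cell, 1 of 6 lymphocyte and 2 of 7 hepatocyte markers fell, where 6.73% of all genes did. At both doses 1 bile duct and 1 hepatocyte marker rose. Of all 42 markers 20 fell at 881 mg/kg, and 9 fell without replicate 2 of that dose, where 3.93% of all genes did. Without that array 4 Kupffer cell, 1 endothelial, 2 stellate, 2 blood cell, 0 lymphocyte and 0 hepatocyte markers fell. The mean level of the Kupffer cell markers was 8.82 to 9.50 on the 881 mg/kg arrays, against 9.64 to 10.13 on the vehicle arrays. The mean level of the lymphocyte markers was 5.88 to 6.06 on the 881 mg/kg arrays, against 6.20 to 6.30 on the vehicle arrays. The markers' part in the clock results was not tested at any dose.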

How the data were processed

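Liver RNA was hybridised to 20 Affymetrix arrays, 1 per sample. The authors deposited log2 values for each probe set, made with RMA according to the submitters' processing notes; the sources used here name no RMA settings, scan dates or batches. The log2 scale was read from the values. RMA in general equalises the arrays' distributions, so differences in total RNA are removed and low signals are compressed. At most 0.0226% of values were identical between any 2 arrays.

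Of 31099 probe sets, 57 controls were set aside and 31042 analysed. The platform annotation, which can be old, gave 20826 probe sets 1 symbol, 436 several and 9780 none, and 20758 of the single-symbol ones matched RefSeq (GRCr8, used for names, gene positions and promoter windows). Each of 14217 genes was read from its probe set with the highest mean. Each dose was compared with vehicle in 1 model of the 6 groups by limma 3.58.1 under R 4.3.3 (lmFit, then eBayes), two-sided, with Benjamini-Hochberg adjustment over all genes and a threshold of 0.05. A second model held a level for vehicle and a line per doubling of dose. Every probe set was also fitted on its own. The limma fitting was tested on simulated data, for a comparison of a dose with vehicle and for the slope. The other steps, such as the motif search and the matching of probe sets to genes, were not tested in this way. Python 3.11.15, pandas 2.3.3, NumPy 2.4.6 and matplotlib 3.10.9 made tables and figures. The standard error of a change against vehicle had a median of 0.10.

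The members and lists were chosen with earlier results of these data known. The rule named all 10 members and up to 4 other loop genes in each direction with the largest called change at 881 mg/kg. It also named the 3 characterised genes, other than members, most like each of Bmal1, Npas2, Per3 and Nr1d1. Nfil3 and Hlf lie outside it and are named with their list of 4 output factors after their values were seen. The alternatives were the probe set, normalization, filter, eBayes, array weights, RNA quality covariates, replicate block, the groups in the fit, the scale of the line and each array left out; the probe set with the widest range of group means was added after values were seen, as were values at 881 mg/kg without replicate 2 for probe sets and lists, and the vehicle spread without replicate 2.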

Additional observations from a re-analysis of the deposited data

Results flagged for a closer look

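Vehicle replicate 2 lay far from the other 4 vehicle arrays for both REV-ERB genes. It read 7.72456 for Nr1d1, where the others read 6.39 to 6.67, and 9.18063 for Nr1d2, where the others read 8.14 to 8.40. In each case the gap to the nearest other array exceeded 0.71 of the whole range of the 5 arrays, the 95% critical value of Dixon's test. Of all genes, 747 (5.25%) passed the same test, close to the 1 in 20 that chance gives, and 2 of the 10 members did (2 of the 18 clock probe sets). Both values lay on the side of the dosed arrays. No cause was tested.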

How the results depend on the processing

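The number of members called ranged over all alternatives from 5 to 8 at 55 mg/kg, 7 to 10 at 110 mg/kg, 7 to 9 at 220 mg/kg, 8 to 10 at 440 mg/kg and 6 to 8 at 881 mg/kg, and from 6 to 9 for the fitted step. For 881 against 55 mg/kg the count of 1 became 2 with the mean of a gene's probe sets, 2 with arrays centred on their median and 0 with only the arrays of the groups compared, and ran from 1 to 4 when each array was left out. With an array left out, 2 to 4 members had a called difference of step and later change and 1 to 4 a called slope (1 without 881 mg/kg replicate 2). Of the comparisons of a result with an alternative, 2766 kept direction and side of the threshold, 67 gained and 37 lost a call, and 20 changed sign. None of those 20 was called with all arrays and the settings of the report, but 5 of them, all of Per2, were called as rises under the alternative. The cause was not tested.

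The sign changes were these. Per2 read 0.47 at 55, 0.70 at 110 and 0.83 at 220 mg/kg and 0.50 for the fitted step with the mean of its probe sets, and 1.04, 1.46, 1.73 and 1.11 with the probe set of widest range. Clock at 881 against 55 mg/kg read -0.0063 and -0.0042 under these settings, and its slope -0.0090 and -0.017, or -0.047 without the 881 mg/kg group. Per1 at 881 against 55 mg/kg read -0.0091 after another quantile normalization and -0.11 to 0.13 with an array left out, and its slope was -0.0072 per 100 mg/kg. With an array left out, Cry1 at 881 mg/kg ranged from -0.47 to 0.0051, Nr1d2 at 881 against 55 mg/kg from -0.19 to 0.093 and its slope from -0.043 to 0.0045.

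The titles number the replicates in each group. Of 45 pairs of arrays with the same number in different groups, 28 had deviations correlated over 0.1 (median 0.14, lowest -0.12). Of 90 pairs with different numbers 8 did (median -0.077), so arrays that shared a number tended to be more alike. What the number stands for is not labelled, and the main model held no term for it. With a replicate block the members called were 5, 7, 7, 8 and 6 from 55 to 881 mg/kg. Under it Cry1 lost its calls at 55, 110 and 440 mg/kg (adjusted p = 0.0604, 0.0732 and 0.0622) and Npas2 at 220 mg/kg (adjusted p = 0.0599), while for step minus later change Cry1 lost its call (adjusted p = 0.0683) and Per3 gained one (adjusted p = 0.0205).

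The 3 arrays of a dosed group limit small changes, such as those of the brightest probe sets of Clock and Per2, more than those of Nr1d1 or Per3. Dim probe sets are compressed by RMA.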
